A study of Mus musculus with 20 samples.

Results

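The Dlx family of homeobox genes was followed through mouse development in RNA of whole embryos. Its 6 members, Dlx1 to Dlx6, were taken by symbol from 18193 genes and are read by 8 probe sets that each carry a single gene symbol. Dlx1, Dlx2, Dlx5 and Dlx6 have 1 probe set each, and Dlx3 and Dlx4 have 2 each. Wild-type C57BL/6 embryos, of mixed sex and specific-pathogen free, were collected without the amnion at daily stages of E7.5 through E10.5, with 3 arrays a stage. Later stages, every other day of E12.5 through E18.5, had 2 arrays each. Each of the 20 arrays (an Affymetrix whole-genome mouse platform, on which sets of short probes read each transcript) carried RNA pooled from several embryos, and no treatment, mutation or transgene was involved. The number of pools limits the precision, and p-values measure the spread between pools. In RNA of whole embryos, fewer cells of a type and less RNA per cell cannot be told apart.

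Dlx genes encode transcription factors related to Distal-less of Drosophila, and bind DNA through a homeodomain. In mammals they lie in neighbouring pairs that are transcribed towards each other and share enhancers: Dlx1 and Dlx2 on mouse chromosome 2, Dlx5 and Dlx6 on chromosome 6, and Dlx3 and Dlx4 on chromosome 11. They are known for the specification and migration of inhibitory neurons of the ventral forebrain, for the pattern of the pharyngeal arches and jaws along the dorsal to ventral axis, for the apical ridge of the limb bud, and for placodes, bone, skin and placenta.

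The promoters of Dlx1 and Dlx2 are shown because only these members had an entry in the promoter table used. These neighbours also had the widest changes of the family. Both rose at E10.5 against E7.5 and fell at E18.5 against E12.5, though their single early steps differed. The RefSeq promoter table of mouse build GRCm38.p6 held an entry for each of these members, and the 250 bases before the transcript start of that table are printed 5′ to 3′. For Dlx2 that start is the 5′ end of the annotated gene, while for Dlx1 it lies inside the annotated gene, downstream of its 5′ end, so that the Dlx1 window is itself within the gene. Capitals mark a GC box (GGGCGG, either strand), and the windows are chr2:71529195-71529444 on the plus strand for Dlx1 and chr2:71546755-71547004 on the minus strand for Dlx2.
Dlx1: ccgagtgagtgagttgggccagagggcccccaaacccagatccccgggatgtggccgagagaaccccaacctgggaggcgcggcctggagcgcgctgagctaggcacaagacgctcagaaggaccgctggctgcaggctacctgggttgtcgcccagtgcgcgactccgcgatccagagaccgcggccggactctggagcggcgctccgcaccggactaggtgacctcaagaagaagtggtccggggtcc
Dlx2: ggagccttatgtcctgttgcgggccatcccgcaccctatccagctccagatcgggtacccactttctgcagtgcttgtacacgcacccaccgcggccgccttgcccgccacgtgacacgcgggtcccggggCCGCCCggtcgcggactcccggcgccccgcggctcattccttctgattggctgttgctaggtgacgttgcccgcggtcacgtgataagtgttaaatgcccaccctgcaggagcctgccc
Both windows were rich in G and C, at 68% for Dlx1 and 66.4% for Dlx2. The GC box occurred once in the Dlx2 window, 119 bases before the start, and in 32.7% of 32851 promoter windows of the same length. On either strand, neither window held the homeodomain core TAATTA (4.84% of windows), the E-box form CAGCTG (13%) or the TATA box TATAAA (12.4%). Other forms of the E-box were not searched for, and the printed Dlx2 window does hold the form CACGTG.

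Values are MAS5 signals, a summary of brightness per probe set on a linear scale. Changes are given on the log2(signal + 25.9) scale, each with its SE from 1 limma fit of all 20 arrays, on which low signals change less than their ratio. A call needed a change of 2-fold or more and a Benjamini-Hochberg adjusted p under 0.05; only called genes are said to have risen or fallen. Early and late arrays formed separate sets. Array medians ranged between 156.2 and 177.6 in the late set (8 arrays, E12.5 through E18.5) and between 67.25 and 91.09 in the early set (12 arrays, E7.5 through E10.5). The dap spike-in control read 1812 to 2571 in the late set and 50.79 to 118.7 in the early one. Each stage lay wholly in 1 set, so that E12.5 against E10.5, and the F test across stages, cannot be told apart from a change of set.

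Over the whole series, 3 of the 5 members tested (Dlx1, Dlx2 and Dlx5) were called in a moderated F test across the 8 stages, against 67.9% of all 14044 genes tested. These 3 had their lowest mean at E7.5 and their highest mean at E12.5, the first stage of the late set. Dlx3 and Dlx4 were not called. Dlx6 lay under the median of every array and was not tested, since the filter kept genes that passed the array median at least 2 times among the 20 arrays. The number of arrays on which a representative probe set passed that median was 20 for Dlx5, 15 for Dlx2, 11 for Dlx1, 8 for Dlx3, 3 for Dlx4 and 0 for Dlx6.

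**Figure D1:**
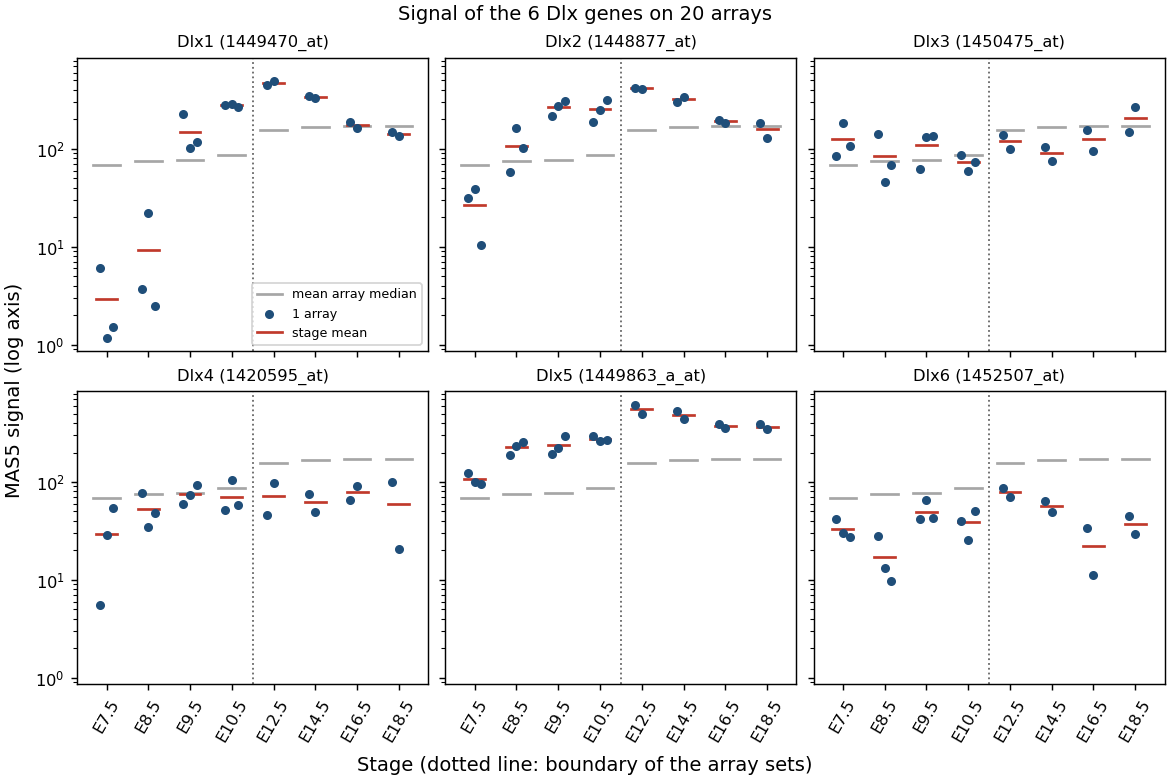
MAS5 signal (log axis) of the representative probe set of each Dlx gene by stage; points are single arrays, red bars stage means, grey bars the mean of the array medians of a stage, and the dotted line divides the array sets. Dlx1 signals lay at 1.17 to 21.9 on the 6 arrays of E7.5 and E8.5 and at 102 or more from E9.5 on; Dlx5 lay above the array median on all 20 arrays and Dlx6 on none.

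Dlx1, a factor of migrating forebrain interneurons, had the widest change of the family. Its signal was 6.04, 1.17 and 1.51 on the arrays of E7.5 and 3.67, 21.9 and 2.45 at E8.5. It was 228, 102 and 117 at E9.5 and 278, 285 and 270 at E10.5. The arrays of the first pair of stages overlapped, lay within the lowest 25.1% of the probe sets of their arrays, and did not overlap with the later ones. In the late set Dlx1 had 451 and 495 at E12.5, 351 and 331 at E14.5, 188 and 163 at E16.5, and 148 and 136 at E18.5. No neighbouring stages overlapped in this set, and each later stage was lower than the one before.

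Dlx1 rose at 1 step of the series, E9.5 against E8.5, by 2.29 ± 0.24 on the log2 scale (adjusted p = 1.2e-06). Its difference was 0.25 ± 0.24 at E8.5 against E7.5 (adjusted p = 0.46) and 0.86 ± 0.24 at E10.5 against E9.5, where the adjusted p was 0.018 but the change stayed under 2-fold. That step passed the fold without E9.5 replicate 1, the highest of its stage (1.17, adjusted p = 0.0019). Over the span of E10.5 against E7.5 Dlx1 rose by 3.40 ± 0.24 (adjusted p = 2.7e-10), averaging 278 ± 7.83 at E10.5 and 2.91 ± 2.72 at E7.5 (SD, n = 3 each). At E18.5 against E12.5 it fell by 1.57 on the log2 scale (SE 0.30, adjusted p = 0.00019), averaging 142 ± 8.68 at E18.5 and 473 ± 31.4 at E12.5 (SD, n = 2 each). No single step of the second set was called for it.

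Dlx2, which acts with Dlx1 in the ventral forebrain and in the upper part of the first pharyngeal arch, was called at both of the first steps of the series. Its signal was 31.3, 39.3 and 10.3 at E7.5 and 57.9, 162 and 103 at E8.5. It was 219, 277 and 309 at E9.5 and 190, 252 and 318 at E10.5. The arrays of E7.5, E8.5 and E9.5 did not overlap between stages, while those of E9.5 and E10.5 did. Dlx2 then had 416 and 414 at E12.5, 303 and 339 at E14.5, 198 and 184 at E16.5, and 186 and 130 at E18.5, with an overlap only between the last pair of stages.

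Dlx2 rose by 1.30 ± 0.27 at E8.5 against E7.5 (adjusted p = 0.00056) and by 1.20 ± 0.27 at E9.5 against E8.5 (adjusted p = 0.0032), and its difference at E10.5 against E9.5 was -0.09 ± 0.27 (adjusted p = 0.87). The call at E9.5 against E8.5 ended without E8.5 replicate 1, the lowest of its stage (0.91, adjusted p = 0.025). With a pseudocount 4 times larger the steps at E8.5 and E9.5 were 0.67 and 0.84 on the log2 scale and missed the fold. Over E10.5 against E7.5 Dlx2 rose by 2.42 ± 0.27 (adjusted p = 1.5e-07). At E18.5 against E12.5 it fell by 1.28 on the log2 scale (SE 0.33, adjusted p = 0.0026), and with the larger pseudocount its change was -0.997, just under the fold.

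Dlx5, a factor of the lower jaw, otic vesicle, limb ridge and osteoblasts, was above the median of all 20 arrays, at the 55.8 to 75.9 percentile of their probe sets. Its signal was 125, 101 and 96 at E7.5 and 189, 231 and 256 at E8.5. It was 193, 222 and 298 at E9.5 and 298, 263 and 267 at E10.5. The arrays of E7.5 lay below all others, and those of E8.5, E9.5 and E10.5 overlapped. In the second set Dlx5 had 619 and 500 at E12.5, 534 and 441 at E14.5, 387 and 354 at E16.5, and 390 and 345 at E18.5. The arrays of E12.5 and E14.5 overlapped, as did those of E16.5 and E18.5, and the earlier pair of stages lay above the later pair.

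At E8.5 against E7.5 the difference of Dlx5 was 0.91 ± 0.16 on the log2 scale (adjusted p = 0.00014), short of the 2-fold minimum. It passed the fold with a smaller pseudocount (1.02) and without E7.5 replicate 1 (1.00) or E8.5 replicate 1 (1.02). Over E10.5 against E7.5 it rose by 1.18 ± 0.16 (adjusted p = 3e-06), averaging 276 ± 19.4 at E10.5 and 107 ± 15.4 at E7.5 (SD, n = 3 each). Quantile normalization reduced this change to 0.75 (adjusted p = 0.00032) and a pseudocount 4 times larger to 0.85, both under the fold. The difference of E18.5 against E12.5 was -0.57 ± 0.20 (adjusted p = 0.021), with arrays that did not overlap and a change under 2-fold.

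Dlx6, the neighbour of Dlx5 and its partner in setting lower jaw identity, gave low signal. It had 41.9, 30.4 and 27.6 at E7.5, 27.8, 13.3 and 9.79 at E8.5, 41.4, 64.7 and 42.5 at E9.5, and 39.7, 25.6 and 50.7 at E10.5. In the second set it had 87.2 and 70.3 at E12.5, 64.2 and 49 at E14.5, 33.5 and 11.2 at E16.5, and 44.6 and 29.7 at E18.5. Both arrays of E12.5 were higher in signal than all other arrays, a ranking that crosses the array sets. By percentile on the array E12.5 was not the highest, at 34.5 to 38.5, where E9.5 had 35.2 to 45. Inside the second set both arrays of E14.5 lay above those of E16.5 and E18.5, and the last pair of stages overlapped. With no filter on low values, over 18193 genes, Dlx6 differed by 0.11 ± 0.26 at E10.5 against E7.5 (adjusted p = 0.77) and by -0.74 ± 0.32 at E18.5 against E12.5 (adjusted p = 0.073). Its largest single step inside a set by that fit was E9.5 against E8.5, at 0.82 ± 0.26 (adjusted p = 0.045), under 2-fold. In the F test across the 8 stages of that fit Dlx6 met the rule for a call (adjusted p = 0.0094). Its highest and lowest stage means, E12.5 and E8.5, were 1.31 apart on the log2 scale and lay in different array sets.

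Dlx3, a factor of the outer epidermis, hair, tooth and placenta, lay on both sides of the array median. Its representative probe set passed the median on 8 arrays and ran from the 33.8 to the 64.3 percentile, and the other passed it on 6. The representative one, 1450475_at, gave 84.5, 182 and 108 at E7.5, 141, 46.2 and 68.6 at E8.5, 62.4, 131 and 136 at E9.5, and 86.7, 59.9 and 73.2 at E10.5. It gave 140 and 100 at E12.5, 105 and 75.6 at E14.5, 155 and 96.1 at E16.5, and 149 and 268 at E18.5. All stages that stood next to each other in the order of their means overlapped. Both arrays of E18.5 were higher than both of E12.5, a difference of 0.65 ± 0.40 that was not called (adjusted p = 0.19). Over E10.5 against E7.5 the difference was -0.56 ± 0.33 (adjusted p = 0.15). The other probe set, 1422037_at, gave 7.6 to 135 over the series, differed by 0.11 ± 0.39 at E10.5 against E7.5 (adjusted p = 0.82) and correlated with the first at r = 0.40 over the 20 arrays. The F test of Dlx3 passed the threshold after quantile normalization (adjusted p = 0.041) and without E8.5 replicate 1 (adjusted p = 0.027).

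Dlx4, a less studied member also expressed in arches and placenta, gave signals of 5.51 to 104 by its representative probe set, 1420595_at. It had 5.51, 28.5 and 54.3 at E7.5, 76.9, 34.5 and 48.7 at E8.5, 59.6, 74.2 and 92.8 at E9.5, and 51.4, 104 and 57.8 at E10.5. It had 46.1 and 97.8 at E12.5, 75.1 and 49.7 at E14.5, 64.9 and 91.8 at E16.5, and 99.1 and 20.5 at E18.5. As for Dlx3, stages next to each other in the order of their means overlapped. The difference of E10.5 against E7.5 was 0.87 ± 0.39 (adjusted p = 0.059), and 1.19 without E7.5 replicate 3, where it was called (adjusted p = 0.019). The other probe set, 1443591_at, gave 4.37 to 76, under the median of every array, and correlated with the first at r = -0.10 over the 20 arrays. With the mean of both probe sets the F test of Dlx4 passed the threshold (adjusted p = 0.014), and its change at E18.5 against E12.5 turned to 0.35 (adjusted p = 0.32), against -0.31 ± 0.47 by the representative one (adjusted p = 0.61).

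Set out by comparison, the single steps called for the 5 tested members were E8.5 against E7.5 and E9.5 against E8.5, for Dlx1 and Dlx2 only. Late steps had fewer arrays and larger SEs (for Dlx2 0.33, where early steps had 0.27). Early and late steps are thus not compared at equal precision. At E8.5 against E7.5, 1 member was called, Dlx2, where 11.2% of all genes were called (6.27% higher, 4.93% lower). At E9.5 against E8.5, 2 members were called, Dlx1 and Dlx2, where 4.17% of all genes were (2.49% higher, 1.68% lower). At E10.5 against E9.5 no member was called (3.66% of all genes, 3.15% higher and 0.513% lower). At E12.5 against E10.5 no member was called (12.6% of all genes, 10.6% higher and 2.02% lower). There Dlx5 differed by 0.95 ± 0.18 (adjusted p = 0.00027) and Dlx1 by 0.72 ± 0.27 (adjusted p = 0.038), both under 2-fold and across the array sets. Without E10.5 replicate 1 or E12.5 replicate 2 the change of Dlx5 reached the fold (1.00 and 1.10). The median change of all genes at that step was 0.12, and -0.11 after quantile normalization or scaling by the 75th percentile.

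In the second set no member was called at E14.5 against E12.5 (3.65% of all genes, 3.28% higher and 0.37% lower), E16.5 against E14.5 (3.78%, 3.6% higher and 0.178% lower) or E18.5 against E16.5 (4.29%, 3.52% higher and 0.776% lower). Among these steps Dlx1 differed by -0.87 ± 0.30 at E16.5 against E14.5 in the limma fit (adjusted p = 0.074). Over the longer spans, 3 of 5 members rose at E10.5 against E7.5, where 23.5% of all genes were called (16% higher, 7.49% lower). At E18.5 against E12.5, 2 of 5 fell, where 21.7% of all genes were called (15.2% higher, 6.44% lower).

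**Figure D2:**
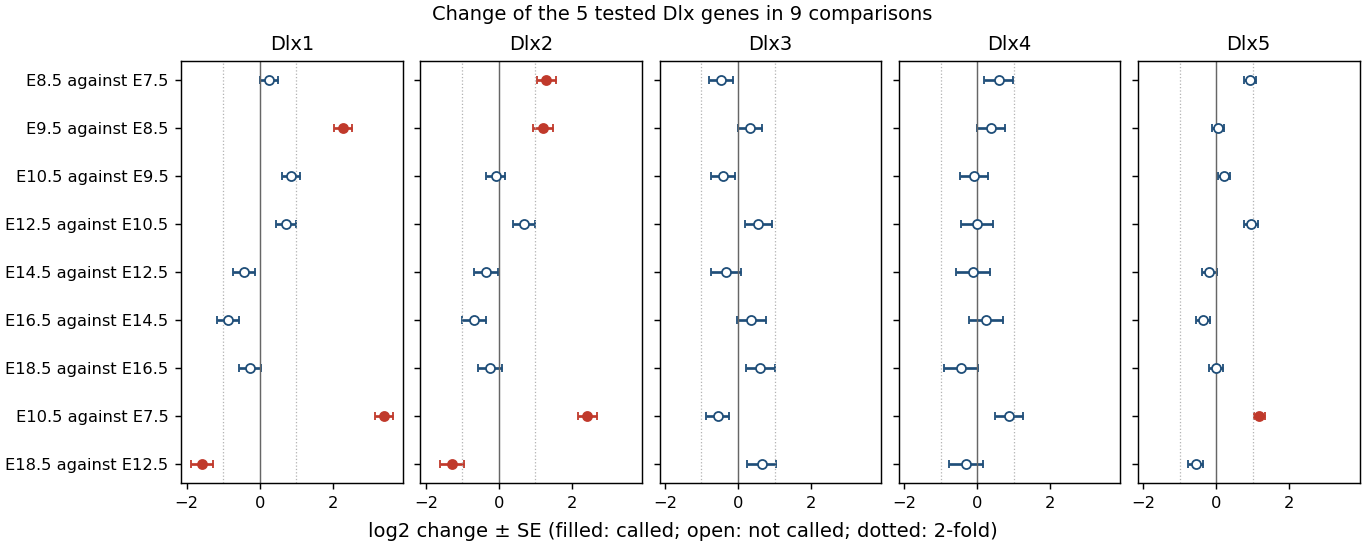
Log2 change with SE (horizontal axis) of the 5 tested Dlx genes in the 7 steps and 2 spans (vertical axis); filled points were called, open points were not, and dotted lines mark 2-fold. Dlx1 and Dlx2 rise by 3.40 and 2.42 at E10.5 against E7.5 and lie at -1.57 and -1.28 at E18.5 against E12.5, while Dlx3 and Dlx4 have no filled point.

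Neighbouring genes were also compared by the difference of their log2 values within each array, which sets no level against another. This difference can show whether a pair moved by equal amounts only where both genes stand clear of the pseudocount of 25.9, and that held for Dlx1 and Dlx2 from E9.5 on. From E12.5 to E18.5 the difference of Dlx1 over Dlx2 averaged 0.18 ± 0.09, 0.08 ± 0.16, -0.11 ± 0.06 and -0.12 ± 0.24 at the 4 stages (SD, n = 2 each). In an exact permutation test of the between-stage F statistic over all 2520 arrangements of the 8 arrays, p was 0.31, or 0.38 adjusted over the 6 tests made.

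At the first stages Dlx1 lay under the pseudocount, at 1.17 to 21.9, so that its difference from Dlx2 largely followed Dlx2 alone. It averaged -0.84 ± 0.43 at E7.5, -1.89 ± 0.35 at E8.5, -0.81 ± 0.74 at E9.5 and 0.14 ± 0.35 at E10.5 (SD, n = 3 each). The exact permutation p over these 12 arrays was 0.012 (adjusted 0.035), which for this reason is not read as unequal change. The step of E9.5 to E10.5, where both genes stood clear, was not tested alone. Its single arrays overlapped, at -1.25 to 0.05 at E9.5 and -0.22 to 0.49 at E10.5. Dlx6, under the median of every array, had a difference from Dlx5 of -1.17 ± 0.02 at E7.5 and between -1.80 and -2.57 on average at E8.5, E9.5 and E10.5. Its exact permutation p was 0.0094 in the early set (adjusted 0.035) and 0.029 in the late set (adjusted 0.043), and neither is read as unequal change of the pair. The same holds for Dlx4 over Dlx3, where Dlx4 passed the array median on 3 arrays, with an exact permutation p of 0.024 in the early set (adjusted 0.043) and 0.67 in the late set.

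**Figure D3:**
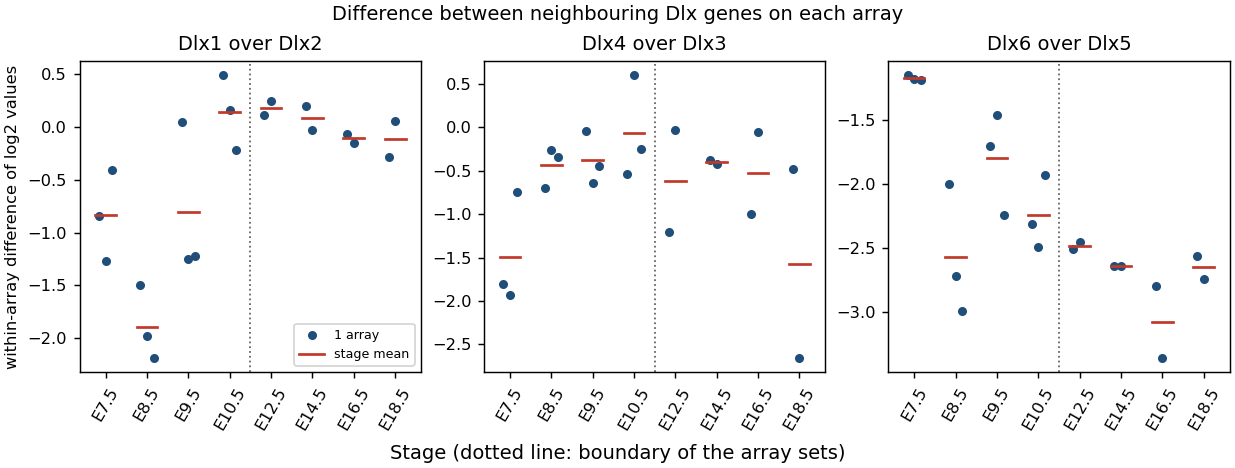
Within-array difference of log2 values between neighbouring Dlx genes (vertical axis) by stage; points are single arrays, red bars stage means, and the dotted line divides the array sets. Dlx1 over Dlx2 lies near 0 from E10.5 on; at E7.5 and E8.5 Dlx1 is under the pseudocount, and Dlx6 is under the array median throughout.

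Transcripts of the opposite strand are part of these loci, and 4 of them have a probe set. Dlx6os1, also called Evf2, is a long non-coding RNA made over the enhancers between Dlx5 and Dlx6, known to recruit Dlx proteins in the ventral forebrain. Dlx1as is an RNA antisense to Dlx1. The strand that a probe set reads is not given in the sources used here. Dlx6os1 had 4.58, 42.6 and 16.7 at E7.5, 22, 40.4 and 45.3 at E8.5, 50.4, 78.4 and 60 at E9.5, and 114, 118 and 168 at E10.5. In the second set it had 349 and 355 at E12.5, 279 and 271 at E14.5, 205 and 177 at E16.5, and 130 and 157 at E18.5, with no overlap between neighbouring stages.

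Dlx6os1 rose by 1.82 ± 0.26 at E10.5 against E7.5 (adjusted p = 5.1e-06) and fell by 1.16 on the log2 scale at E18.5 against E12.5 (SE 0.32, adjusted p = 0.0046). With a pseudocount 4 times larger these changes were 0.928 and -0.883 and missed the fold. At E12.5 against E10.5, across the array sets, it rose by 1.26 ± 0.29 (adjusted p = 0.0014), a call that ended after quantile normalization (0.671, adjusted p = 0.096) and with the larger pseudocount (0.952). Dlx1as had 1.68, 5.7 and 38.1 at E7.5, 39.5, 1.95 and 39.7 at E8.5, 18.6, 6.74 and 20.3 at E9.5, and 86, 195 and 213 at E10.5. It rose at E10.5 against E9.5 by 2.16 ± 0.36 (adjusted p = 0.00027). In the second set it had 326 and 257 at E12.5, 229 and 205 at E14.5, 161 and 177 at E16.5, and 114 and 95.2 at E18.5. It fell by 1.28 on the log2 scale at E18.5 against E12.5 (SE 0.45, adjusted p = 0.02). That call ended without E12.5 replicate 1 (adjusted p = 0.12), E18.5 replicate 1 (0.053) or E18.5 replicate 2 (0.099), and with a smaller (0.14) or larger pseudocount (-0.923, under the fold). Dlx4os, at 1.51 to 110, and Dlx6os2, at 3.54 to 59.6, did not pass the filter.

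**Figure D4:**
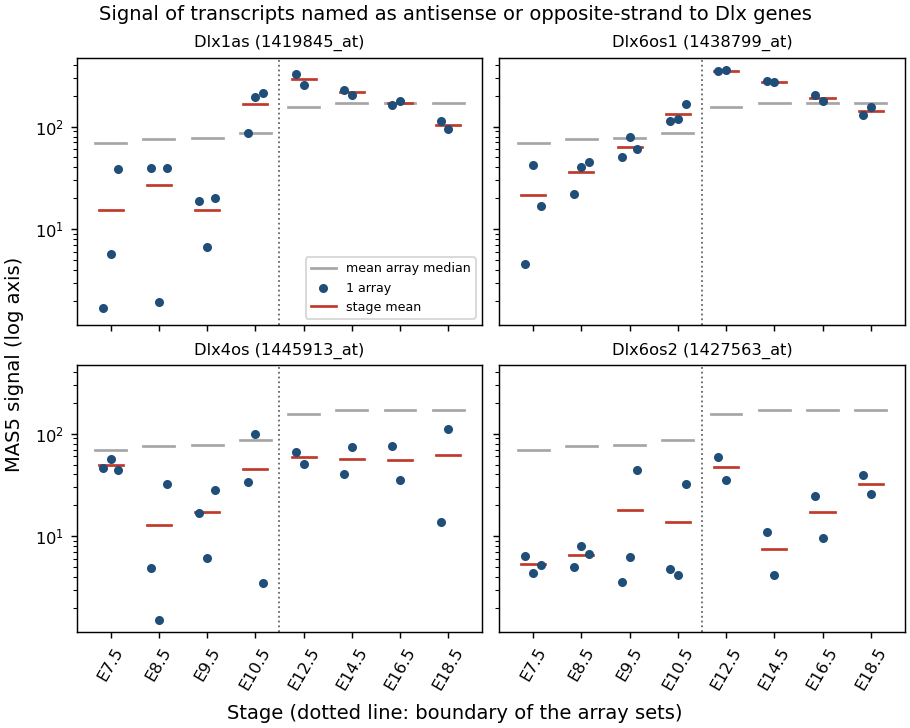
MAS5 signal (log axis) by stage of 4 transcripts named as antisense or opposite-strand to Dlx genes; points are single arrays, red bars stage means, grey bars the mean of the array medians, and the dotted line divides the array sets. Dlx1as stands at 6.74 to 20.3 at E9.5 and 86 to 213 at E10.5, and Dlx6os1 at 349 and 355 at E12.5 and 130 and 157 at E18.5.

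As a description, the log2 values of Dlx1 and Dlx2 correlated at r = 0.88 over the 20 arrays, and at 0.84 over the 12 and 0.98 over the 8 arrays of the separate sets. Dlx5 correlated with Dlx1 at 0.81 and with Dlx2 at 0.83, and Dlx6os1 with Dlx5 at 0.90, Dlx1 at 0.88 and Dlx2 at 0.80. Dlx5 and Dlx6 correlated at 0.03 within the early set and at 0.90 within the late one. Dlx3 correlated with no other member above 0.23 over the 20 arrays. These arrays share stage and array set, and replicates of a stage are not separate points in time.

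The genes with patterns most like a member were sought over the 20 arrays by Pearson correlation of log2 values. For Dlx1 they were Mab21l1 (r = 0.98), Shox2 (0.98), Tox (0.97), Megf10 (0.97) and Ptx3 (0.97). For Dlx2 they were Tug1, Prkd3, Phip, Zic1 and Tbx18, at 0.95 to 0.96. For Dlx5 they were Ltbp1, Slc5a3, Slc18a2, Sestd1 and Zfp467 (by a probe set of the _s_at kind, which may read several transcripts), at 0.96 to 0.98. For Dlx3 and Dlx4, whose values moved little beyond their spread, the best values were lower. They were 0.68 to 0.73 for Sidt2, Atp10a (by an _x_at probe set, which may cross-hybridise), Mt4, Serpinb6b and Slc39a14 with Dlx3. They were 0.70 to 0.79 for Avp, Tmem184b, Hs3st3a1, Micall2 and Tpd52l1 with Dlx4. Within the late set alone these were 0.71 for Avp and 0.65 for Micall2, but 0.15 for Tmem184b, 0.26 for Hs3st3a1 and 0.43 for Tpd52l1.

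Of 20 listed regulators, partners and antisense transcripts of Dlx genes, 15 were tested. At E10.5 against E7.5, 7 rose and 0 fell (median 0.77), where 2251 of all genes tested rose and 1052 fell (median 0.11). Besides Dlx1as and Dlx6os1 these were Trp63, the p63 factor upstream of Dlx genes in the limb ridge (2.35 ± 0.18), and Edn1, the endothelin that switches on Dlx5 and Dlx6 in the lower arch (1.46 ± 0.28). The others were Maged1, a protein that binds Dlx5 (1.35 ± 0.07), Hand2, a target of Dlx5 and Dlx6 in the arch (1.27 ± 0.09), and Grip1 (1.04 ± 0.23), all with an adjusted p of 0.00073 or less. Grip1 was under the fold after quantile normalization (0.682), scaling by the 75th percentile (0.891), with the larger pseudocount (0.687), with the mean of its probe sets (0.799), and without E7.5 replicate 3 (0.713) or E10.5 replicate 2 (0.835). Edn1 did so with the larger pseudocount (0.692) and Hand2 with the mean of its probe sets (0.926). The Msx factors, which can oppose Dlx proteins on shared sites, differed by 0.41 ± 0.11 for Msx1 and -0.53 ± 0.14 for Msx2, both under 2-fold.

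At E18.5 against E12.5, 7 of the 15 fell and 2 rose (median -0.95), where 905 of all genes tested fell and 2139 rose (median -0.09). Beside Dlx1as and Dlx6os1 these were Msx1 (-2.02 ± 0.14), Hand2 (-1.94 ± 0.11), Sall3 (-1.87 ± 0.53), Chd7, a chromatin remodeller (-1.63 ± 0.19), and Msx2 (-1.53 ± 0.17). Trp63 rose by 1.15 ± 0.22 and Edn1 by 1.21 ± 0.35. Calls ended for Sall3 without E12.5 replicate 1 (adjusted p = 0.11) or E18.5 replicate 1 (0.13), and for Edn1 without E12.5 replicate 2 (0.078) and with the larger pseudocount (0.799, under the fold). Msx2 was at -0.994 with the mean of its probe sets. The ligand Bmp4, an inducer of several Dlx genes, differed by -0.82 ± 0.17 at the first span and -0.10 ± 0.21 at the second and was not called.

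Genes of the tissues in which Dlx factors act were counted over both spans, in which 16% of all genes rose and 7.49% fell at E10.5 against E7.5, and 15.2% rose and 6.44% fell at E18.5 against E12.5. The pharyngeal arch and jaw list had 15 rises and 1 fall among 22 tested at E10.5 against E7.5 (median 1.49), and 11 falls and 2 rises at E18.5 against E12.5 (median -1.09). Prrx1, a homeobox gene of arch and limb mesenchyme, rose by 4.71 ± 0.15 in the first of these spans. The ventral forebrain and GABA neuron list had 11 rises and 1 fall among 18 (median 1.17), and later 6 falls and 1 rise (median -0.63). Gad2, an enzyme of GABA synthesis, fell by 1.21 on the log2 scale at E18.5 against E12.5 (SE 0.27), and was at -0.954 with the larger pseudocount. The limb list had 8 rises and 1 fall among 22 (median 0.74), and later 7 falls and 2 rises (median -0.65). The placode list had 7 rises and 2 falls among 15 (median 0.85), and later 8 falls and 0 rises (median -1.07).

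Among lists of differentiated tissue, the osteoblast and cartilage list, which includes genes known to depend on Dlx5, had 5 rises and 2 falls among 15 at E10.5 against E7.5 (median 0.36) and 12 rises and 1 fall at E18.5 against E12.5 (median 1.51). Ibsp, a bone matrix sialoprotein, rose by 5.07 ± 0.34 in that span. The epidermis and hair list had 4 rises and 5 falls among 22 (median 0.19), and later 16 rises and 2 falls (median 2.42). The tooth and enamel list had 2 rises among 6 (median 0.21), Lhx8 (2.61 ± 0.24) and Lhx6 (1.08 ± 0.37). Both are also in the forebrain and arch lists, which overlap with this one, so they are counted in each. Later the tooth list had 3 rises and 1 fall (median 0.98), and the fall was Lhx8. Over the same span Dlx5 differed by -0.57 ± 0.20 and Dlx3 by 0.65 ± 0.40 on the log2 scale, as given above, and neither was called.

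Markers of tissue beside the embryo proper moved with the first span. The trophoblast and placenta list had 13 falls and 1 rise among 14 at E10.5 against E7.5 (median -2.83). The summed signal of the 3 trophoblast markers measured was 28.6 to 127 at E10.5 and 3390 to 4450 at E7.5. That of 6 visceral endoderm markers was 8430 to 10100 at E10.5 and 57800 to 66000 at E7.5. At E10.5 most of it was Afp and Ttr, which averaged 6790 and 2190. Amn averaged 18.9 at E10.5 and 7320 at E7.5, Cubn 74.3 and 8140, and Apoa4 14.1 and 2630. This sum was higher again later, at 79100 to 80400 at E18.5. The summed signal of 3 decidua markers was 64.4 to 93.5 at E10.5 and 724 to 1380 at E7.5. Neural crest markers (3 measured) summed to 718 to 970 at E10.5 and 142 to 268 at E7.5. At E18.5 against E12.5 the 3 forebrain markers summed to 381 to 386 at E18.5 and 1210 to 1280 at E12.5. The 4 surface ectoderm markers summed to 8850 to 9100 at E18.5 and 2250 to 2380 at E12.5, and the 2 osteoblast markers to 3110 to 3160 at E18.5 and 180 to 234 at E12.5. In the first span the surface ectoderm sum was 3080 to 3400 at E10.5 and 25800 to 27700 at E7.5, and its members went both ways. Krt8 averaged 1200 at E10.5 and 11400 at E7.5, and Krt18 1630 and 15000. Trp63 averaged 286 at E10.5 and 37.2 at E7.5, and Krt14 104 and 25.5. The part of these tissue shifts in the changes of Dlx1, Dlx2 and Dlx5 was not tested.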

How the data were processed

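RNA of pooled whole embryos was biotin-labelled by the one-cycle method, per the labels' protocols. The deposited intensity values are linear MAS5 signals, 1 for each probe set, with MAS5 named in the submitters' processing notes and its version and settings not given in the sources used here. On each of the 20 arrays the mean without the lowest and highest 2% was 500, and no other normalization was applied. Of 45101 probe sets, 34945 carry a single gene symbol, 932 several, and 9224 none or are controls. Symbols came from the platform annotation, and 34741 were matched to RefSeq (GRCm38.p6), which changed 0. The probe set with the highest mean log2 value represented a gene.

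Values were analysed as log2(value + 25.9), the pseudocount being the median over arrays of their 25th percentile. Of 18193 genes, 14044 passed the filter. A mean per stage was fitted in limma 3.58.1 under R 4.3.3 (eBayes with trend, 12 residual degrees of freedom), two-sided, with Benjamini-Hochberg adjustment over all genes tested. The fit and the exact permutation test were tested on simulated data. Named genes were all members with their probe sets, the listed regulators, the 5 nearest patterns without uncharacterised loci, and from each list up to 4 called genes with the largest change per span, of which a few are printed. Members and lists were chosen with earlier results of these data known. Replicate numbers were checked for pairing: deviations of same-numbered arrays from their stage means correlated at -0.05 to 0.28. Inside the early set replicate 1 stood at 0.14 to 0.28, and replicates 2 and 3 at 0.03 to 0.09. Between stages of 2 arrays both pairs give the same value by construction, so the check is weaker there. Pairing was not excluded, and the main fit held no term for it. Alternatives were other scalings, pseudocounts, filters, probe set rules, fewer arrays, no minimum fold and a replicate block.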

Additional observations from a re-analysis of the deposited data

How the results depend on the processing

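Of 11 called changes of Dlx genes, none turned under any alternative run, and 213 of 219 alternative values kept the call. Part of this was fixed in advance. The value of the F test, the highest minus the lowest stage mean, cannot turn. A run with no minimum fold cannot end a call. Runs with no filter, or with each probe set as its own feature, leave the log2 change of a member as it was. The 6 losses were Dlx5 at E10.5 against E7.5 after quantile normalization (0.745) and with a pseudocount 4 times larger (0.848), Dlx2 with that pseudocount at E8.5 (0.671), E9.5 (0.838) and E18.5 against E12.5 (-0.997), and Dlx2 at E9.5 against E8.5 without E8.5 replicate 1 (0.905). Every Dlx gene dropped out under a filter at the 75th percentile, as did the tooth list, so that filter gave no value for them. The count of Dlx genes called at E8.5 against E7.5 was 2 with a smaller pseudocount or no minimum fold and 0 with a larger pseudocount, against 1. With the larger pseudocount it was 1 at E9.5 against E8.5 and 1 at E18.5 against E12.5. With no minimum fold it was 1 at E10.5 against E9.5 and 2 at E12.5 against E10.5. The share of all genes called under these alternatives is not given here.

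With each array left out in turn, counts of Dlx genes called ran from 1 to 2 at E8.5 against E7.5, 1 to 2 at E9.5 against E8.5, 0 to 1 at E10.5 against E9.5 and 0 to 1 at E12.5 against E10.5. The adjusted exact p of linked genes ran from 0.0051 to 0.062 for Dlx1 over Dlx2, 0.034 to 0.098 for Dlx4 over Dlx3 and 0.012 to 0.062 for Dlx6 over Dlx5 in E7.5 to E10.5, and 0.043 to 0.36 for Dlx6 over Dlx5 in E12.5 to E18.5. The larger pseudocount gave 0.087 for Dlx1 over Dlx2 and for Dlx4 over Dlx3 in the first set, and 0.40 for Dlx6 over Dlx5 in the second. The mean of all probe sets gave 0.24 for Dlx4 over Dlx3 in the first set and 0.057 for Dlx6 over Dlx5 in the second. Leaving out arrays in these permutation tests was an alternative added after seeing the data, and where a gene lies under the pseudocount these tests do not bear on equal change.

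Signs turned only among the 39 uncalled changes. Quantile normalization turned Dlx3 at E12.5 against E10.5 (-0.0865). The mean of all probe sets turned Dlx3 at E9.5 (-0.065) and E10.5 (0.198), and Dlx4 at E9.5 (-0.185), E10.5 (0.0649), E12.5 (0.13), E14.5 (0.359) and E18.5 against E12.5 (0.351). Dlx4 at E12.5 against E10.5, at -0.0014, turned with the larger pseudocount (0.00295) and the replicate block (0.0799). With arrays left out, Dlx5 ran from -0.1 to 0.182 at E9.5 and -0.0968 to 0.0687 at E18.5 against E16.5, and Dlx2 from -0.248 to 0.0865 at E10.5 against E9.5. Dlx4 ran from -0.322 to 0.054 at E10.5, -0.392 to 0.389 at E12.5, -0.501 to 0.28 at E14.5, -1.16 to 0.274 at E18.5 against E16.5 and -1.02 to 0.405 at E18.5 against E12.5.

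Counts of list genes called at E10.5 against E7.5 moved for the tooth list to 1 (quantile, larger pseudocount, mean of probe sets, the arrays of both stages alone), for regulators to 4 (larger pseudocount), 3 (stricter filter) and 12 (no minimum fold), for the arch list to 9 and the trophoblast list to 9 (stricter filter), and with no minimum fold for limb to 15 and epidermis to 14. At E18.5 against E12.5 the forebrain list had 4 (larger pseudocount and stricter filter) and 11 (no minimum fold), and the trophoblast list 5 (quantile) and 8 (no minimum fold). With no minimum fold more of all genes can pass, and the stricter filter leaves fewer genes to test. The share of all genes called and the list genes still tested under these rules are not given here. Lower counts under that filter can therefore be genes no longer tested. With arrays left out the tooth list ran from 1 to 2 in the first span and the trophoblast list from 3 to 5 in the second. The split of all calls was 1484 higher to 284 lower at E12.5 against E10.5, but 755 to 540 after quantile normalization and 943 to 883 scaled by the 75th percentile. At E10.5 against E7.5 it was 1880 to 1455 with that scaling, and at E10.5 against E9.5 315 to 102 after quantile normalization, against 442 to 72. Under it the median change over all genes was -0.058 at E10.5 against E7.5, and 0.0052 after quantile normalization, against 0.11. In the early set the arrays numbered replicate 1 deviated partly together (r = 0.14 to 0.28). A replicate block, which is a term for replicate number, changed no call of a Dlx gene. With it the counts were 3 at E10.5 against E7.5 and 2 at E18.5 against E12.5. Causes of these shifts were not tested. Low signal limits Dlx3, Dlx4 and Dlx6, and Dlx1 at E7.5 and E8.5.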
